A study of Mus musculus with 8 samples.

Results

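The METTL14 sites described here are the peaks of 4 CUT&RUN libraries from mouse embryonic stem cells, 2 from cells labelled Mettl3 Control and 2 from cells labelled Mettl3 CKO. Peaks sharing at least 1 bp were merged, and each merged region was marked with the libraries that called it. The 12036 peaks of the 4 lists formed 8091 regions, out of 8689 regions formed by all 13316 peaks of the 8 libraries of the series. CUT&RUN tethers a nuclease through an antibody to wherever its target sits on chromatin, and the released fragments are sequenced. All 4 libraries came from C57BL/6 cells grown in LIF at 1000 U/ml with the GSK3 inhibitor CHIR99021 at 3 µM and the MEK inhibitor PD0325901 at 1 µM, and all were made with a rabbit antibody to METTL14 (HPA038002, Sigma). The groups differ in the Mettl3 label only. The labels neither spell out CKO nor say how the allele was made, how many clones were used or whether libraries within a group stem from different cultures, so the p-values below measure the spread between these libraries, which may be technical. No METTL14 library had a peak within 2 kb of Mettl3, and Mettl14 had 1 peak, in CKO replicate 1, at place 3143 of its list. Peak lists measure neither gene's loss nor the identity of the cells.

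METTL3 and METTL14 form the nuclear heterodimer that writes N6-methyladenosine on RNA. METTL3 holds the catalytic site, and METTL14 supports the RNA-binding surface of the complex. Because the complex acts on RNA as it is made, both proteins can be recovered from chromatin, and profiling METTL14 in cells labelled Mettl3 CKO asks where METTL14 signal is found when its partner gene is targeted.

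The promoter windows below show where METTL14 peaks lay at 6 genes with different call patterns. Each is the RefSeq GRCm38.p6 window of 300 bases on the gene's own strand, 250 before the transcription start and 50 from it onward, and capitals mark the bases that any METTL14 peak covered. The first 4 windows touched a peak in all 4 libraries. They belong to Hoxd9, a Hox patterning gene (chr2:74697513-74697812, plus strand), Pou3f2, a neural POU factor (chr4:22488317-22488616, minus strand), Fos, an immediate early gene (chr12:85473640-85473939, plus strand), and Cbx8, a Polycomb subunit gene (chr11:119040864-119041163, minus strand). The window of Nkx2-3, a homeobox gene (chr19:43612075-43612374, plus strand), touched peaks of both control libraries and of no CKO library. The window of Lef1, a nuclear effector of Wnt signalling (chr3:131110047-131110346, plus strand), touched peaks of both CKO libraries and of no control library.
Hoxd9: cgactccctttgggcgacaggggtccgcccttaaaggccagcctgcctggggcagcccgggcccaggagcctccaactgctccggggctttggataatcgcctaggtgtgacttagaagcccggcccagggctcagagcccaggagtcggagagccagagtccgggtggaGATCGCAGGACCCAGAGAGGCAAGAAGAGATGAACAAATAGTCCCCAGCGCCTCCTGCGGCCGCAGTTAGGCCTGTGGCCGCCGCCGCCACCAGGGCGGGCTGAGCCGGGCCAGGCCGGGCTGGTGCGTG
Pou3f2: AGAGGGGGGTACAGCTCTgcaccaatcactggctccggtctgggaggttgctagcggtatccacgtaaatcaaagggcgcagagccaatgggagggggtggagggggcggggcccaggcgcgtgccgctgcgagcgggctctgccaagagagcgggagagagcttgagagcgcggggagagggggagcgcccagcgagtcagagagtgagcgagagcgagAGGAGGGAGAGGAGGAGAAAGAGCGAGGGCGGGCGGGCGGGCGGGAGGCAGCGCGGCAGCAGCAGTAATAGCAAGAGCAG
Fos: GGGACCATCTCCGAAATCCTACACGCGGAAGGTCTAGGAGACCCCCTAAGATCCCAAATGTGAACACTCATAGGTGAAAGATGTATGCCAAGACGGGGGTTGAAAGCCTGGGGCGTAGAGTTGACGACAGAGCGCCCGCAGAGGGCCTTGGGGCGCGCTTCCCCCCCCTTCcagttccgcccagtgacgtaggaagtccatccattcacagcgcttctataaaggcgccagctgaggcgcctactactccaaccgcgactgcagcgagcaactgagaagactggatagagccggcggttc
Cbx8: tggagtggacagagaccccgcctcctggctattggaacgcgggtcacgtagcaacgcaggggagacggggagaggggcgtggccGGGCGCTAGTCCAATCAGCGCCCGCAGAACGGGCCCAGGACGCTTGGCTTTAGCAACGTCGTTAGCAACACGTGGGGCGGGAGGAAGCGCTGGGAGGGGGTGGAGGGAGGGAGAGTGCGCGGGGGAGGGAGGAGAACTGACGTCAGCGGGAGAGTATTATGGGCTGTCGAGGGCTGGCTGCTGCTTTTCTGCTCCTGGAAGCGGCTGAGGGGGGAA
Nkx2-3: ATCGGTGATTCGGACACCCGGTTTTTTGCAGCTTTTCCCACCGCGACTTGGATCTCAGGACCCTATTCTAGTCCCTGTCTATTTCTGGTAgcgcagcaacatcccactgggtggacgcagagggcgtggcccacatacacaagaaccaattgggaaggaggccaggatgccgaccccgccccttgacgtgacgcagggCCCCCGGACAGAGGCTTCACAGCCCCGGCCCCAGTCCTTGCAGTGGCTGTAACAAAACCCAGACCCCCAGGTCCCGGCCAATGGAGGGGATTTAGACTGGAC
Lef1: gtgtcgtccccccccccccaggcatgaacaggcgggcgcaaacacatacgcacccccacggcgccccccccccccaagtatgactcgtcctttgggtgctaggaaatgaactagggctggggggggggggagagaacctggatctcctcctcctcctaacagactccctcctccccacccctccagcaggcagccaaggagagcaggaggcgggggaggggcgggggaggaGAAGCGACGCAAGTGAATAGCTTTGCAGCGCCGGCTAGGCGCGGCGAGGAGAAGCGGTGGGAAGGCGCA
The 6 windows held between 15 and 24 CpG dinucleotides, against a median of 13 over the 17492 windows of protein-coding genes. Of those 17492 windows, 126 (0.72%) touched a peak in all 4 libraries and 15791 touched none.

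Both control lists were of similar length (3129 and 3546 peaks), whereas the CKO lists had 3922 and 1439 entries. The CKO libraries were thus the longest and the shortest list. The group difference in log2 peak number was -0.49 (exact permutation over 2 against 2 libraries, p = 1), and the smallest p that this design allows is 0.333. The depth of the libraries is unknown, so the main counts and shares of regions and genes were also computed with each list cut to its first 1439 peaks, the length of the shortest. Offsets from starts, places in the lists, the counts for short RNA genes and the breakdown of tRNA genes by chromosome and amino acid come from the full lists only. The deposited score was 1 for all peaks, and the order of the lists was used as a rank. That order carries information on recovery: with each list divided into 5 equal bins, 79.4% to 89.6% of the peaks in the first bin touched a peak of another METTL14 library, against 17.0% to 21.3% in the last bin of the 3 long lists and 55.4% in that of the short one. Peaks that touched a METTL3 peak of the same series were concentrated in the first bin, where they made up 17.3% to 44.4%. The METTL3 lists come from cells labelled Mettl14 Control or Mettl14 CKO, and their peaks were pooled. Touching a METTL3 peak may therefore rest on a call from Mettl14 CKO cells alone.

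In both genotypes most METTL14 peaks lay at a boundary of a protein-coding gene or inside one, with 27.9% to 31.4% at neither. The share that random placement would give was not computed. A peak was placed at a gene boundary when it lay within 2 kb of either end of one of 21900 RefSeq protein-coding genes. The share was 45.3% and 49.5% in the control libraries and 53.3% and 57.0% in the CKO libraries. Both CKO values lay above both control values, and the means were 47.4% ± 2.99 and 55.2% ± 2.58 (SD, n = 2; difference 7.76 percentage points, exact permutation p = 0.333, adjusted p = 0.467 over 14 measures). At equal length the shares were 51.4% and 53.6% in the controls and 55.4% and 57.0% in the CKO libraries, so the order held with a smaller difference of 3.68 percentage points (exact permutation p = 0.333, adjusted p = 0.467). The share within 250 bp of a transcription start was 27.2% and 27.7% in the controls and 31.1% and 32.1% in the CKO libraries at equal length. Peaks deeper inside a gene showed the opposite order, at 19.6% and 17.8% against 16.6% and 14.1%. No measure could pass a threshold of 0.05 with 2 libraries per group.

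**Figure D1:**
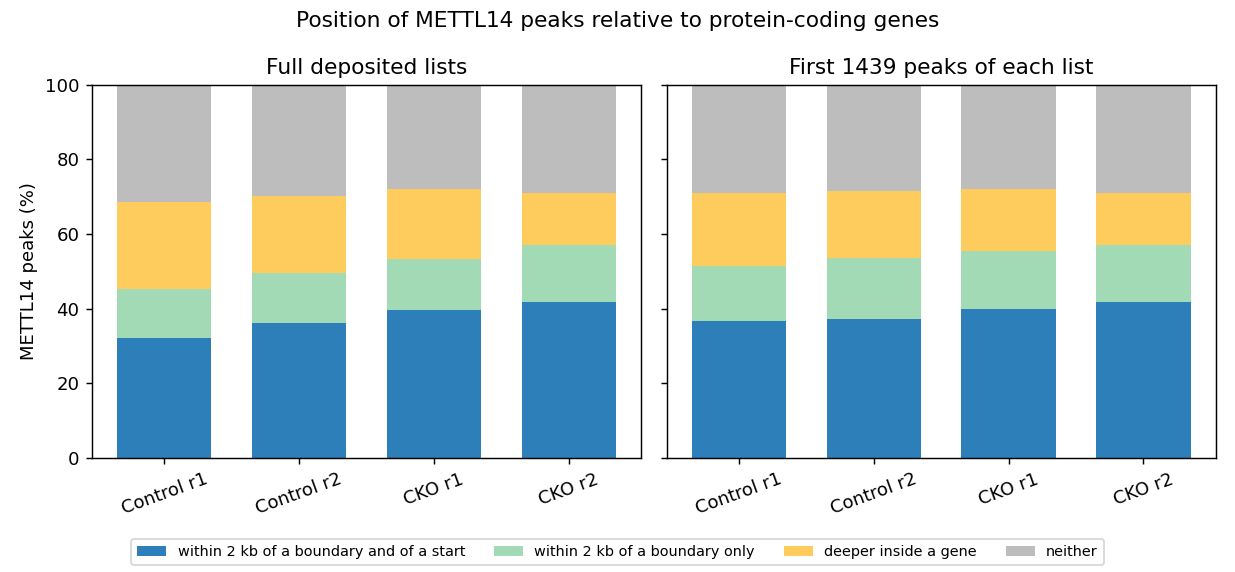
Share of METTL14 peaks by position, for full lists (left) and lists of equal length (right). Each bar is 1 library, and the vertical axis is the percentage of its peaks. The bar sections from the bottom are peaks within 2 kb of a gene boundary and of a transcription start, within 2 kb of a boundary only, deeper inside a gene, and neither. The 2 lower sections together reach 45.3% to 57.0% on the left and 51.4% to 57.0% on the right.

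Of the 8091 regions, 468 were called in all 4 libraries, 634 in 3, 1269 in 2 and 5720 in 1. Of the 468 regions called in all 4, 238 (50.9%, 95% Wilson interval 46.3% to 55.4%, counting error only) lay at a gene boundary, and 115 touched a METTL3 peak. Without those 115 regions the boundary share was 65.4% of 353. Regions called in 1 library lay at a boundary in 44.1% of cases (42.8% to 45.4%). At equal length the order was the opposite: 143 of 338 regions called in all 4 (42.3%, 37.2% to 47.6%) lay at a boundary, against 56.2% (54.1% to 58.4%) of the 2047 called in 1. Without regions that touched a METTL3 peak these equal-length shares were 60.4% of 225 and 57.5% of 1991.

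Of the 468 regions called in all 4 libraries, 200 (42.7%) had a start within 2 kb of their nearer edge, and 164 (35.0%) lay neither at a boundary nor inside a gene. Of those 200, 131 (65.5%) had their centre upstream of it, with a median offset of -161 bp. The 65 regions near a start that both CKO and no control library called had a median offset of -122.5 bp, with 44 upstream. The corresponding 107 regions of both control and no CKO library had a median of +50 bp, with 51 upstream. These offsets describe regions, which are not replicates of a genotype, and the difference was not tested.

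**Figure D2:**
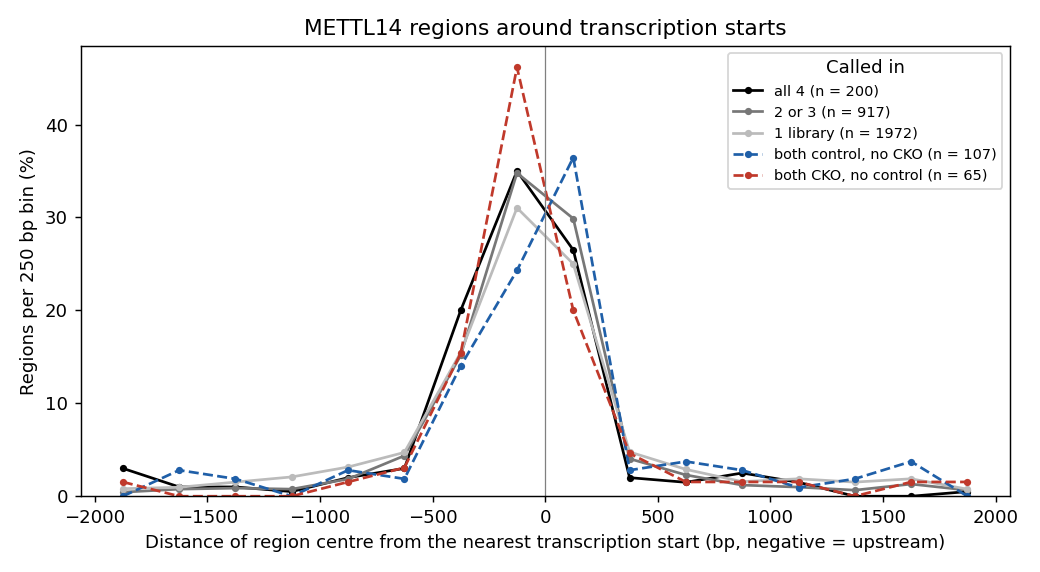
Percentage of regions in each 250 bp bin of distance from the nearest transcription start (horizontal axis, negative values upstream), for regions grouped by the libraries that called them. The profile of regions called in all 4 libraries is highest in the bin just upstream of the start, at 35.0%, and holds 20.0% in the next bin upstream and 26.5% in the first bin downstream.

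A gene was called marked in a library when a peak lay within 2 kb of either of its boundaries. In the order control 1, control 2, CKO 1 and CKO 2, the libraries marked 7.11%, 8.76%, 10.4% and 4.13% of the 21900 genes. In all 4 libraries 451 genes (2.06%) were marked, and 18374 were marked in none. At equal length 266 genes (1.21%) were marked in all 4. Of the 351 genes marked in all 4 whose strand was known, 314 had a region within 2 kb of their own start and 266 (75.8%) within 250 bp of it. The promoter windows of those 351 genes had a median GC content of 62.0% and a median observed-to-expected CpG ratio of 0.797, against 55.0% and 0.484 for the 14634 windows of unmarked genes. The motif GGGCGG on either strand was in 67.5% of the 351 windows, against 42.2% of the windows of unmarked genes and 46.3% of all 17492. Genes marked in 1 library had similar values (GC 61.7%, ratio 0.781, motif 66.2%), as did those marked in 2 or 3 (62.0%, 0.808 and 69.4%). These properties were thus shared by marked genes and not particular to those marked in all 4. Only 77.8% of the 451 genes had a window, which is below the 80% needed for a full check of such properties, so these values describe the matched genes only.

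Developmental transcription factor genes were marked at many members. The 6 families examined hold 297 genes, of which 111 and 125 were marked in the control libraries and 130 and 84 in the CKO libraries. All 4 libraries marked 60 of them (20.2%, against 2.06% of all genes). At equal length the counts were 100 and 108 in the controls and 105 and 84 in the CKO libraries, and 53 (17.8%, against 1.21%) were marked in all 4. With all peaks, the number with a region shared by both libraries of a genotype was 56 in the controls (18.9% of the class, against 3.2% of all genes) and 53 in the CKO group (17.8%, against 2.63%). Without peaks that touched a METTL3 peak these counts were again 56 and 53, of 689 and 566 such genes in all.

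Hox genes, which set position along the body axis, were marked most densely. Of 39 Hox genes, 27, 31, 29 and 26 were marked in the order given above (69.2%, 79.5%, 74.4% and 66.7%). Over all genes these shares were 7.11%, 8.76%, 10.4% and 4.13%. In all 4 libraries 22 Hox genes (56.4%) were marked, against 2.06% of all genes. Neighbouring Hox genes can share a peak, as Hoxa10 and Hoxa11 shared their best peak in both CKO lists, so these are not all separate sites. Place 1 is the first peak of a list, and the best peak of Hoxa7 stood at places 190 and 139 in the control lists and 119 and 111 in the CKO lists. The best peak of Hoxd11 stood at 198 and 145 in the controls and 110 and 146 in the CKO libraries. For Hoxd9, whose window is printed above, the places were 280, 178, 244 and 185. These peaks ranked early in every list, and the Hox regions called in all 4 libraries did not always lie at a start. The Hoxa7 region (chr6:52217360-52217509) had its centre 1138.5 bp downstream of the start, and the Hoxd11 region (chr2:74686569-74686739) lay 277 bp inside the far end of the gene. By mean place, the Hoxa7 region ranked 6 among the boundary regions called in all 4 libraries. Ranks 1 and 2 were mitochondrial regions near ND5, ND6 and CYTB, and ranks 3, 4 and 5 lay at Lars2, Brox and Gm51877. The regions of ranks 1, 3, 4 and 5 touched a METTL3 peak, and the Hoxa7 region did not. Hoxb3 was the only Hox gene marked in both control and no CKO library, with places 458 and 410.

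Among homeobox genes outside the Hox clusters, 39 and 47 of 93 were marked in the controls (41.9% and 50.5%). The CKO libraries marked 44 and 28 (47.3% and 30.1%). All 4 libraries marked 18 genes of this class (19.4%, against 2.06% of all genes). They include Nkx6-1, a regulator of motor neuron and beta cell identity, with places 192 and 174 in the controls and 166 and 148 in the CKO libraries. Meis1, a cofactor of Hox proteins, had places 234, 288, 143 and 233. Lhx8, a LIM factor of forebrain and oocyte, had places 274, 244, 205 and 215. Of 14 Otx, Zic and Pou neural factor genes, 6 (42.9%) were marked in all 4 libraries: Otx1, Otx2, Zic2, Pou3f2, Pou3f3 and Pou4f1. Otx2, which directs anterior neural fate, had several peaks per library (4 and 3 in the controls, then 3 and 5), the best at places 172, 125, 109 and 82. Of 90 forkhead, GATA, T-box, Sox and AP-2 genes, 12 (13.3%) were marked in all 4, among them Foxa1 and Foxd1. Of 52 bHLH genes, 17.3% and 13.5% were marked in the controls and 21.2% and 7.69% in the CKO libraries. Each share lay above that of all genes in the same library. Only Hes7, an oscillator gene of somite formation, was marked in all 4 (1.92%, near the 2.06% of all genes).

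Pax genes specify tissue fields in the embryo. Their counts were 3 and 4 of 9 in the controls and 1 and 1 in the CKO libraries, at full and at equal length. Pax7 was marked in all 4 libraries, with 3, 3, 2 and 3 peaks. Pax1 (places 1184 and 1239) and Pax6 (794 and 863) were marked in both control libraries only, and Pax3 in control replicate 2 only. With 9 genes and 2 libraries per group the design cannot show this to be more than the spread between libraries.

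**Figure D3:**
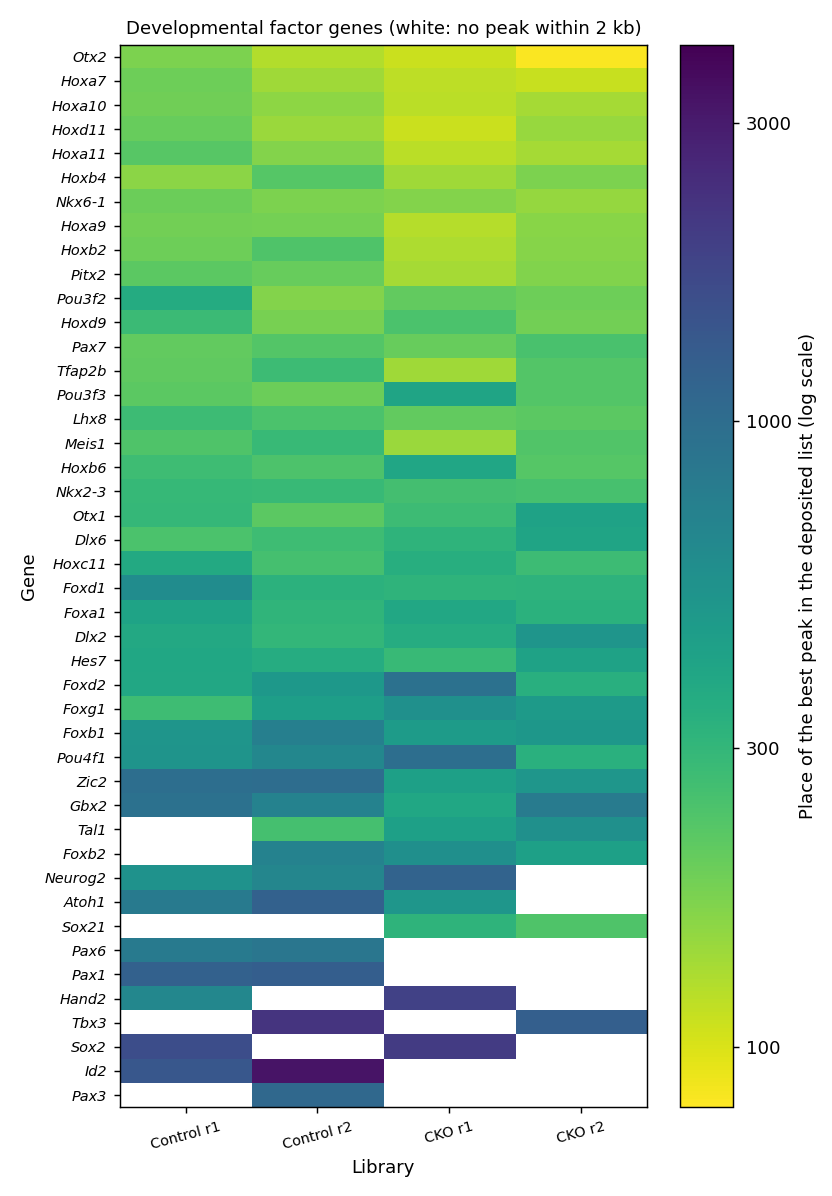
Place of the best METTL14 peak within 2 kb of each of 44 developmental factor genes (rows) in the 4 lists (columns), on a log colour scale on which lighter colours are earlier places. White cells are genes without a peak within 2 kb. Otx2 and the Hox genes stand at the top, 32 of the 44 genes are marked in all 4 libraries, and Pax1, Pax6 and Sox21 are marked in 1 genotype only.

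Outside the developmental factors, immediate early genes had a marked share of 31.6% and 31.6% in the controls and 36.8% and 31.6% in the CKO libraries (6, 6, 7 and 6 of 19). Fos, Fosb, Jund and Egr1, which encode transcription factors, were marked in all 4. Fos had places 494 and 422 in the controls and 3630 and 354 in the CKO libraries. CKO replicate 1 stood apart here, while CKO replicate 2 had the earliest place. Jun was marked in both CKO libraries only, at places 3156 and 1336, and at equal length in CKO replicate 2 only. The first of these places lies beyond the end of the control replicate 1 list, which has 3129 peaks. Among 47 Polycomb, trithorax and H3K27 demethylase genes, 8, 6, 9 and 5 were marked (17.0%, 12.8%, 19.1% and 10.6%). For all genes the shares were 7.11%, 8.76%, 10.4% and 4.13%. Bmi1, Cbx8 and Phc1, which encode subunits of Polycomb repressive complex 1, were marked in all 4. Cbx8 had places 257, 250, 521 and 202. Pluripotency factor genes were marked at 5 and 5 of 25 in the controls (20% and 20%). The CKO libraries marked 5 and 6 of them (20% and 24%). Of the 11 genes marked at all, however, 5 were marked in 1 library, and Gbx2 alone was marked in all 4. Sox2 was marked in the first library of each group only.

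Genes of the m6A pathway were marked at 2 and 6 of 24 in the controls (8.33% and 25.0%). The CKO libraries marked 7 and 3 (29.2% and 12.5%). Among these genes Hnrnpa2b1, which encodes a nuclear reader, was marked in all 4 libraries. Rbm15, which encodes an adaptor of the writer complex, had a peak in control replicate 2 and both CKO libraries, at places 1008, 481 and 490. Replication-dependent histone genes were marked at 17 and 26 of 64 in the controls (26.6% and 40.6%). The CKO libraries marked 29 and 12 (45.3% and 18.8%). In all 4 libraries 4 histone genes were marked (6.25%, against 2.06% of all genes), and at equal length 2 (3.125%, against 1.21%). H2bc3 and H3c3, neighbours among the 4, had the same best peak in each library. Cytosolic ribosomal protein genes were marked at 13, 16, 21 and 10 of 83. Rpl4, Rpl32 and Rps29 were marked in all 4 (3.61% of the class, against 2.06% of all genes). At equal length 1 gene of the class was marked in all 4 (1.20%, against 1.21%). Rps29 lies beside Rn7s1, a signal recognition particle RNA gene that also had a peak within 500 bp in all 4 libraries. To which of these neighbours the peaks belong was not tested. Splicing factor and hnRNP genes were marked at 7, 14, 20 and 2 of 70 (10.0%, 20.0%, 28.6% and 2.86%). The last of these shares lay below the 4.13% of all genes marked in CKO replicate 2. Mitochondrial ribosome genes were marked at 7, 12, 10 and 4 of 78 (8.97%, 15.4%, 12.8% and 5.13%). tRNA synthetase genes were marked at 5, 8, 6 and 3 of 37 (13.5%, 21.6%, 16.2% and 8.11%). For all genes the shares were 7.11%, 8.76%, 10.4% and 4.13%. At equal length mitochondrial ribosome genes gave 3.85%, 6.41%, 5.13% and 5.13%, against 3.58%, 3.68%, 3.85% and 4.13% of all genes. At equal length splicing factor and hnRNP genes gave 4 and 6 in the controls and 7 and 2 in the CKO libraries, which overlap.

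Cell cycle and replication licensing genes gave 15 and 15 of 67 in the controls (22.4% and 22.4%). The CKO libraries gave 23 and 11 (34.3% and 16.4%). At equal length the counts were 5 and 4 against 9 and 11. Ccnd2, which encodes a D-type cyclin, and Cdc25a, which encodes a phosphatase that activates cyclin-dependent kinases, were marked in both CKO libraries only. Ccnd2 had places 579 and 366, and Cdc25a had places 1096 and 1025. Of the 24 classes, 19 had overlapping groups at equal length. In 2, pluripotency factors and cell cycle genes, both CKO counts lay above both control counts. In 3, Pax genes, respiratory complex genes and tRNA synthetase genes, both lay below. Some of these separations rest on few genes. Pluripotency factors had 2 and 2 of 25 in the controls against 3 and 6. Respiratory complex genes had 6 and 6 of 98 against 4 and 4, and tRNA synthetase genes 5 and 4 of 37 against 3 and 3. At full length 2 classes had groups that did not overlap, and over all protein-coding genes at equal length both CKO shares (3.85% and 4.13%) also lay above both control shares (3.58% and 3.68%).

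Receptor genes of smell and pheromone sensing and keratin-associated genes were marked at few members. Of 1110 olfactory receptor genes, 1 was marked in 1 library, and of 409 vomeronasal receptor and keratin-associated genes, 2 were marked in 1 library each. Of 17 fibroblast markers, 1, 0, 1 and 1 were marked (5.88%, 0%, 5.88% and 5.88%), near the shares of all genes. Of 19 genes of the 2-cell stage, 1 was marked, in control replicate 2. Imprinted genes gave 7, 6, 9 and 4 of the 39 matched (17.9%, 15.4%, 23.1% and 10.3%), each above the share of all genes in that library, and Peg3, Usp29, Peg10 and Sfmbt2 were marked in all 4. Peg3 and Usp29 are neighbours and had their best peaks at the same places, 1122, 673, 644 and 529.

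**Figure D4:**
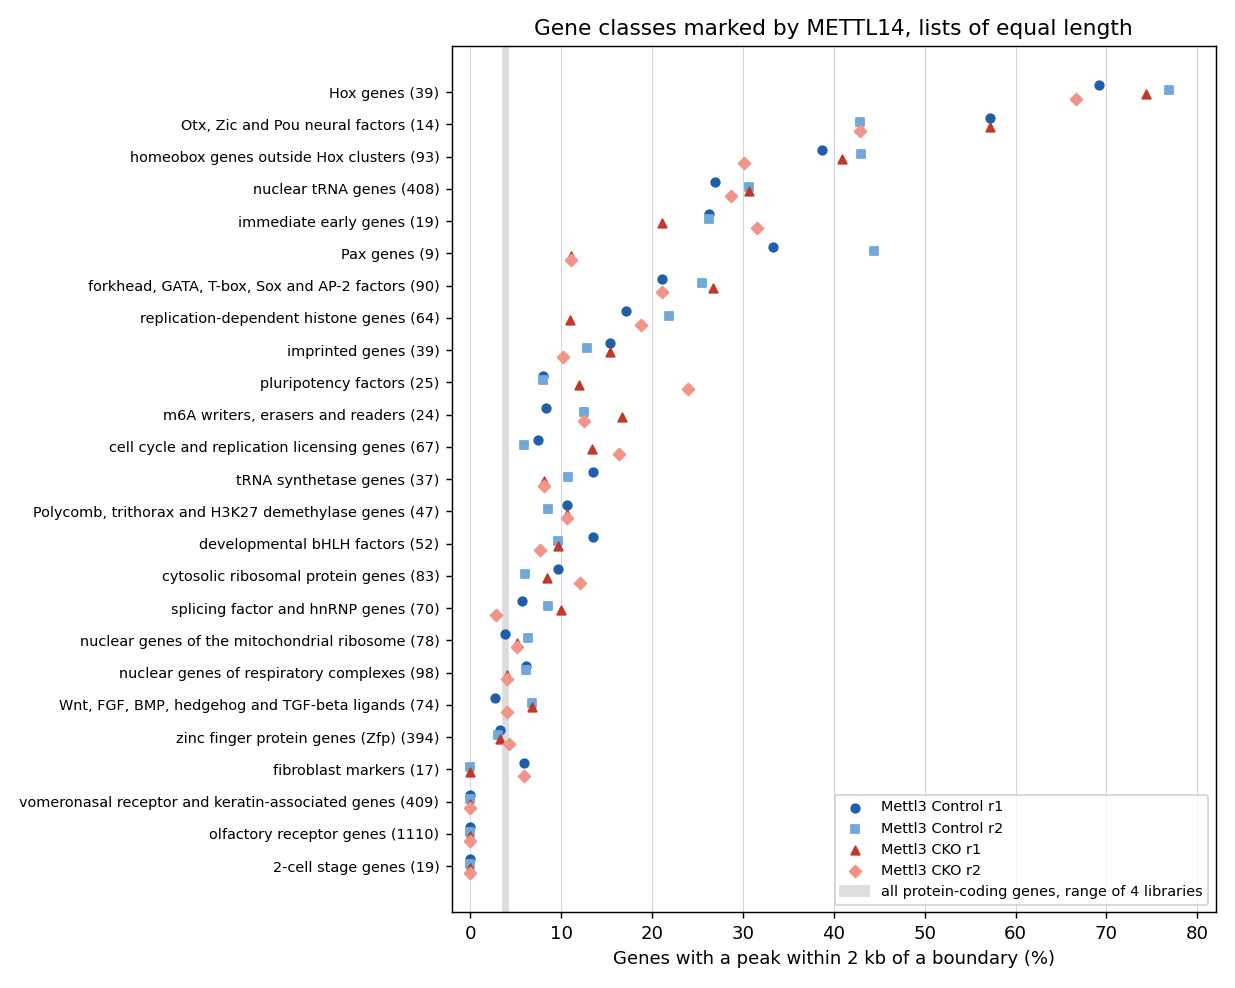
Percentage of the genes of each class (rows, number of genes in brackets) with a METTL14 peak within 2 kb of a boundary, with every list cut to 1439 peaks. Points are the 4 libraries, and the grey band is the range over all protein-coding genes, 3.58% to 4.13%. Hox genes lie between 66.7% and 76.9%, and the points of the genotypes are intermixed in most classes.

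Regions were then compared between genotypes. A region touched by both libraries of a group was counted as replicated. There were 1074 replicated control regions and 856 replicated CKO regions, and 453 overlapped between the groups, 42.2% of the control and 52.9% of the CKO regions. At equal length there were 639 and 630, and 332 overlapped, 52.0% and 52.7%. Between single lists at equal length, the share of peaks that touched a peak of the other list (mean of both directions) was 44.4% within the controls and 43.8% within the CKO group, and 39.5% to 45.9% between libraries of different genotypes. The range between genotypes thus held both values within genotypes. At full length replicated control regions marked 700 genes and replicated CKO regions 577, with 324 in common (46.3% and 56.2%). At equal length they marked 357 (1.63% of all genes) and 399 (1.82%), with 186 in common (52.1% and 46.6%).

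Regions called in both libraries of 1 genotype and neither of the other numbered 243 for the controls and 141 for the CKO group. At equal length the numbers were 121 and 124. Many lay close to a call of the other genotype. Of the 131 control regions at gene boundaries, 63 (48.1%, 95% Wilson interval 39.7% to 56.6%) were at a gene that a CKO library also marked, and of the 91 CKO regions 43 (47.3%, 37.3% to 57.4%) were at a gene that a control library marked. A peak of the other genotype lay within 500 bp of 76 of the 243 regions and of 52 of the 141. Of the best ranked control regions, those at Tmem267 (rank 1), Elobl (rank 2), Lhx8, Hoxc11, Hoxb6 and Dlx2 were of this kind. Each of these genes was marked in all 4 libraries, and the Tmem267 region touched a METTL3 peak. At Hoxc11 the control region (chr15:102954667-102954944) and a CKO region (chr15:102954418-102954652) lay side by side. The Nkx2-3 and Lef1 windows printed above are also of this kind: Nkx2-3 was marked in all 4 libraries, and Lef1 in control replicate 1 and both CKO libraries.

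Few genes were called in both libraries of 1 genotype and nowhere within 2 kb in the other. There were 134 for the controls (0.612% of all genes) and 90 for the CKO group (0.411%), and at equal length 72 (0.329%) and 82 (0.374%). Of the equal-length genes, 42 of 72 and 53 of 82 did have a peak of the other genotype within 2 kb in the full lists. The rule was met at both lengths by 30 genes of the controls and 29 of the CKO group. Of the 297 developmental factor genes, 9 (3.03%) met the rule for the controls and 3 (1.01%) for the CKO group in the full lists, and 10 (3.37%) and 6 (2.02%) at equal length. Those of the controls at both lengths include Pax1, Pax6, Msx1, Irx3, Foxf1 and Hoxb3. The best placed gene of the controls was Fezf1, which encodes a forebrain zinc finger factor, at places 282 and 279 (region chr6:23249821-23249999). Msx1, a craniofacial homeobox gene, had places 548 and 329, and Irx3 had 434 and 634. Gad1, which encodes a GABA-synthesising enzyme, had places 689 and 1235.

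Developmental factors of the CKO group that met the rule at both lengths include En2, Gsc and Sox21. Sox21, a SoxB factor gene of neural progenitors, was the best placed nuclear gene, at 313 and 236 (region chr14:118231160-118231326, 1907 bp beyond the end of the gene). Sall1, a zinc finger factor gene of kidney and limb, had places 467 and 626. Gsc, a gene of the gastrula organizer, had 959 and 843. Fst and Fstl3, which both encode antagonists of activin, were marked at places 718 and 1297 and at 1422 and 1027. The calls depend on the window: with 5 kb Fezf1 and Ccnd2 were each marked in 3 libraries and no longer in 1 genotype alone, and with 1 kb Sox21 and Pax6 were each marked in 1 library. Jun, Cdc25a, Hoxb3, Foxf1, Msx1, Irx3, Gad1, En2, Sall1, Gsc, Fst and Fstl3 were chosen for mention after their values were seen, as were the X-linked and short RNA genes named below. None of these absences was tested, since 2 libraries per group and an unknown depth cannot separate a lost site from a missed call.

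Among noncoding genes, tRNA genes had the highest marked share. Of 408 nuclear tRNA genes, the libraries had a peak within 2 kb of 151 and 172 in the controls and 197 and 117 in the CKO group, and 92 (22.5%) had one in all 4. The same figure was 0.974% for lncRNA genes, 1.2% for snRNA genes, 0.651% for miRNA genes, 0.149% for snoRNA genes and 0.0905% for pseudogenes. Regions called in both libraries of a group lay within 2 kb of 90 tRNA genes in the controls and 92 in the CKO group, 58 of them in common. At equal length the single-library counts were 110 and 125 in the controls and 125 and 117 in the CKO libraries, which overlap. tRNA genes lie in clusters and share peaks: 89, 108, 143 and 59 peaks lay within 2 kb of one, 2.84%, 3.05%, 3.65% and 4.10% of each list. The 217 regions within 500 bp of a tRNA gene lay a median of 42 bp from it, 36 touched the gene itself, 20 were called in all 4 libraries and 121 in 1. Only 57 of the 217 were at a protein-coding boundary, and 2 touched a METTL3 peak. On chromosome 13, which holds the largest cluster, 54, 62, 74 and 34 of 105 tRNA genes were marked. By contrast 2, 3, 5 and 2 of 56 tRNA genes for cysteine were marked. Other short RNA genes with a peak within 500 bp in all 4 libraries were Rmrp (RNase MRP RNA), Rn7s1 (signal recognition particle RNA), Rnu7 (U7 snRNA) and Rnu2-10 (U2 snRNA), while Rn7sk had a peak in CKO replicate 1 only and Terc in none. No source used here says how reads of repeated genes were placed, and the part of this in the counts was not tested.

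Few genes on the X chromosome were marked. Of 966 X-linked genes, 6 and 8 were marked in the controls and 5 and 5 in the CKO libraries. These are 0.621% and 0.828%, then 0.518% and 0.518%, against 7.47%, 9.22%, 10.9% and 4.31% of the 20665 autosomal genes. In each library the autosome with the lowest share was well above the X chromosome: 4.71%, 5.76%, 7.64% and 2.80%. None of 17 X-linked tRNA genes was marked. Of the 14 X-linked genes marked at all, Apoo and its neighbour Fam90a1b were marked in all 4 libraries, and Siah1b and Asmt in 3. On the Y chromosome 0 of 256 genes were marked. No source used here gives the copy number of the sex chromosomes in these cells or any regions removed before deposit, and their part was not tested.

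**Figure D5:**
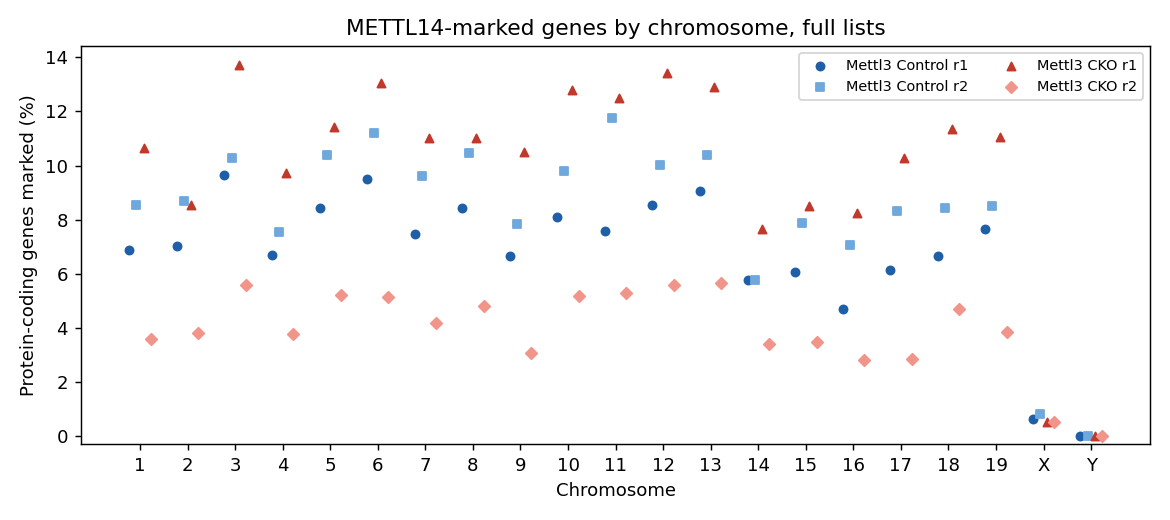
Percentage of protein-coding genes with a METTL14 peak within 2 kb of a boundary on each chromosome (horizontal axis), with 1 point per library and full lists. All 4 libraries lie between 0.518% and 0.828% on X and at 0 on Y, and on the autosomes from 2.80% in CKO replicate 2 to 13.7% in CKO replicate 1.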

How the data were processed

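The 4 METTL14 peak lists were analysed. The 4 METTL3 lists of the series, from cells labelled Mettl14 Control or Mettl14 CKO, were pooled to mark peaks that touched a METTL3 peak. They also entered the count of regions over the whole series. Per the submitters' processing notes the tools were HOMER, SAMtools, Bowtie2 2.4.1, Trimmomatic 0.38 and CASAVA, listed without their roles, and the build was mm10. The threshold, background library and depth of peak calling were not given in the sources used here. Peaks were listed per library, not pooled, and each deposited list has the start and end of each peak and a score, which the authors set to 1 for all peaks. Peaks had a median width of 149 bp.

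Merging, distances and exact permutation tests over libraries (two-sided) were computed with Python 3.11.15, NumPy 2.4.6, pandas 2.3.3 and SciPy 1.17.1, and were tested on simulated lists. Genes and promoter windows were RefSeq's for GRCm38.p6, the assembly behind mm10, and 17492 of 21900 protein-coding genes (79.9%) had a window that gives strand. Ranks are file order, in percent of the list, averaged over the calling libraries. Named genes were those at the 12 best ranked boundary regions called in all 4 libraries and at the 8 best of each genotype alone, up to 6 members of each list by number of libraries and rank, every member called in all 4 for lists of up to 25 genes, and Mettl3 and Mettl14. Members and lists were chosen with earlier results of these data known, so no pattern already seen in them is independent support. A result for 1 gene is not reported here.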

Additional observations from a re-analysis of the deposited data

How the results depend on the processing

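Cut to equal length, 52.0% of replicated control regions were found in the CKO group, the regions of both control and no CKO library numbered 121, and the genes 357 for replicated control regions and 72 for control calls alone. Cut to 1000 peaks, that share was 54.4%, regions of 1 genotype numbered 84 (control) and 77 (CKO), genes of replicated regions 216 and 265, genes of 1 genotype 41 and 54, and tRNA genes of replicated control regions 52. Without peaks touching a METTL3 peak the shares of regions found in the other genotype were 37.0% (control) and 46.7% (CKO), and with peaks widened by 500 bp 48.1% and 63.6%. A window of 250 bp, and all tRNA alternatives, were added after seeing the data, and it left 56 and 54 tRNA genes. Windows of 1 kb and 5 kb, a 50% reciprocal overlap and chromosomes 1 to 19 and X kept every count within 1.5 times.

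Leaving out 1 library makes the other the whole group, so counts grow by construction. The difference in log2 peak number ranged from -1.21 to 0.24, and changed sign without CKO replicate 2. The difference in boundary share ranged from 5.64 to 9.88 percentage points. Control regions found in the CKO group ranged from 17.1% to 70.6%, CKO regions found in the control group from 19.3% to 70.9%, regions of 1 genotype from 316 to 2059 (control) and 249 to 2192 (CKO), genes marked in the group from 700 to 1918 and 577 to 2275, genes of 1 genotype from 162 to 696 and 158 to 859, developmental factors from 56 to 125 and 53 to 130, and tRNA genes from 90 to 172 and 92 to 197.

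With the replicate block the boundary difference was 7.76 percentage points (exact permutation p = 0.5, the smallest possible) and the log2 peak number difference -0.49 (p = 1). Gene calls of libraries with the same number did not deviate together (correlation -0.06 over 21900 genes, -0.05 at equal length). Most genes had no call in any library, so this cannot settle whether the numbers pair the libraries. Of 153 named genes, 104 kept their number of marking libraries at equal length and 112 with a 1 kb window.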
